A study of Arabidopsis thaliana with 2 samples.

Results

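The germin and germin-like genes of Arabidopsis thaliana (thale cress), written GER or GLP, were followed in leaves. They were taken by locus identifier, GER1 (AT1G72610), GER2 (AT5G39190), GER3 (AT5G20630), GLP4 (AT1G18970), GLP5 (AT1G09560), GLP6 (AT5G39100), GLP7 (AT1G10460), GLP9 (AT4G14630) and GLP10 (AT3G62020), and make up 9 of the 27336 loci counted. The list was chosen by family name with the read counts of this same comparison already known, so their ratios are a description. The study compared a wild-type line of the Columbia ecotype with the mutant line atpip1;2-1, in the same ecotype, which lacks normal amounts of PIP1;2, an aquaporin (water channel) of the plasma membrane. Each genotype was 1 library of sequenced transcript 3′ ends, made from leaves of 10 plants at 3 weeks of age, grown on soil with light for 12 h a day at 24 °C and nights at 20 °C. All plants of a genotype went into its 1 library, so the spread among plants is unknown and the genotypes were not tested against each other.

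Germins and germin-like proteins are secreted glycoproteins of the plant cell wall and belong to the cupin superfamily, whose members fold into a small barrel that holds a metal ion. The germin first studied, in germinating cereals, is an oxalate oxidase that releases hydrogen peroxide into the wall, and some germin-like proteins of other plants have superoxide dismutase activity. In Arabidopsis, GER3 transcript is known to cycle under the circadian clock, and GLP5, also named PDGLP1, lies at plasmodesmata, the channels between plant cells.

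The metal is held by histidines and a glutamate, and the coding stretch for this site is shown for the members the results turn on, with the histidine and glutamate codons in capitals. The stretches are 30 bases of the coding strand, 5′ to 3′, from RefSeq transcripts on assembly TAIR10.1, while the counts were made on TAIR9.
GER1: ccaatgCACactCACcctggtgcctctGAG
GER3: cctctcCACactCATcctggtgcttctGAG
GLP5: ccacctCACaccCACccacgtgccactGAG
GER2: ccacctCACacgCACcctcgtggctcaGAG
AT5G39160: ccacctCACacgCACcctcgtggctcaGAG
A histidine codon, any codon, a histidine codon and, after 3 or 4 further codons, a glutamate codon occurred in frame in 9 of 9 members, starting between coding positions 298 and 337. This run of codons was read on the coding strand only, and 3.06% of 27533 Arabidopsis coding sequences hold it somewhere. GER2 and AT5G39160, a germin-like locus in the same gene cluster on chromosome 5, had the same letters in this stretch. GER1 and GER3 were each other's nearest relative, with 417 identical bases over the 636 of the longer coding sequence (65.6%) and no shared run over 15 bases.

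The wild-type library held 4079098 reads and the mutant library 4041759, and 15111 genes had at least 20 reads over both. PIP1;2 (AT2G45960), the mutated gene, had 4211 and 566 reads, 12.9% of the wild-type level in the mutant library (11.8% to 14.1%). Leaf markers were abundant, with RBCS1A, a small subunit of Rubisco, at 23128 and 17918 CPM and CAB1, a light-harvesting protein, at 21077 and 20970 CPM. CPM is the read count scaled to the library's effective size. The root markers held 11 and 16 reads together, with PYK10 at 10 and 15, SHV2 at 1 and 1 and EXPA7 at 0. The floral markers held 3 and 1 (AG 2 and 0, PI 1 and 1, AP3 at 0), and the seed storage genes, CRA1 and CRU3 among them, held 0 in both. Phloem markers stood at 188 and 168 CPM for SUC2 and 16.1 and 16.2 CPM for APL. Guard cell markers stood at 15.8 and 15.2 CPM for FMA and 3.77 and 5.07 CPM for MYB60.

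**Figure D1:**
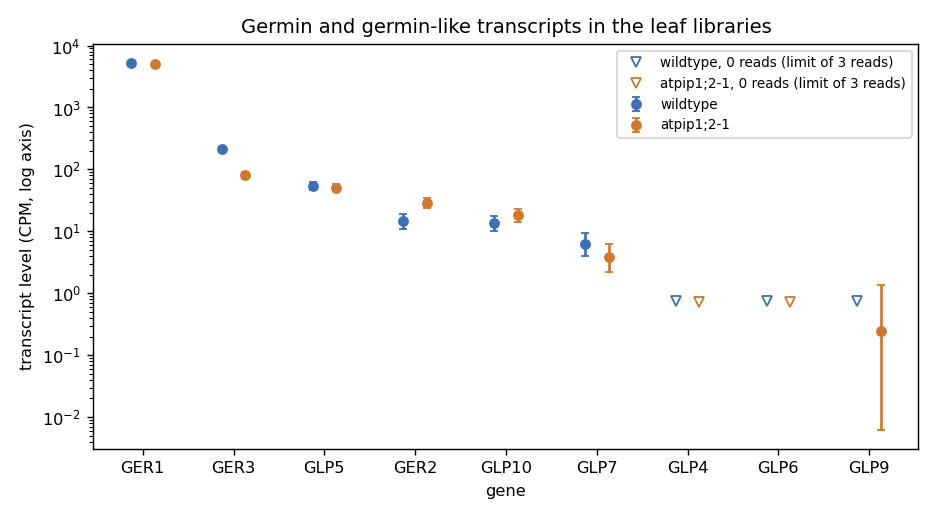
Transcript level (CPM, log axis) of the 9 genes in the wild-type library (blue) and the atpip1;2-1 library (orange), with exact 95% Poisson intervals. Open triangles mark 0 reads at the limit of 3 reads. GER1 stands at 5279 and 5083 CPM, and GER3 at 214 CPM in wild-type and 80.2 CPM in mutant leaves.

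GER1 carried nearly all germin reads of these leaves. It had 21017 wild-type and 21051 mutant reads, a level of 5279 CPM (5208 to 5351, exact 95% Poisson interval) against 5083 CPM (5015 to 5152). These and all other intervals cover counting error only, and the reads carry no molecular identifiers. By reads GER1 ranked at position 24 of all wild-type loci and at 26 of all mutant loci. Its share of the reads of the 9 genes was 94.6% for the wild type (94.3% to 94.9%, exact binomial) and 96.5% for the mutant (96.3% to 96.8%). The log2 ratio of mutant over wild type was -0.05 (-0.08 to -0.03). The sign of the GER1 ratio depended on scaling, with 0.02 for total counts as library sizes and 0.02 for reference genes. The RefSeq gene AT1G72600, for a hydroxyproline-rich glycoprotein, covers all 931 bases of GER1 on the opposite strand. AT1G72600 was counted with 3 and 10 reads, and the sources used here do not say whether counting used the strand.

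GER3, the clock-controlled germin, was the one member called lower in the mutant library. Called means a ratio of at least 2-fold with a 95% interval that leaves out 0, among genes with at least 20 reads. GER3 had 852 wild-type and 332 mutant reads, 214 CPM (199.9 to 229) against 80.2 CPM (71.8 to 89.3). The counting intervals of the levels did not overlap. The log2 ratio was -1.42 (-1.60 to -1.23), so the mutant library held 37.5% of the wild-type level (32.9% to 42.6%). In bulk leaf RNA, fewer cells of a type and less RNA per cell cannot be told apart.

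Across all genes, 1.71% of the 15111 were called lower and 1.90% higher, which is 258 and 287 genes. With total counts as library sizes the split was 186 lower and 366 higher, with totals lacking organelle-encoded and the most abundant genes also 186 and 366, and with reference genes 183 and 375. Of the 9 members 6 reached 20 reads, of which 1 was called lower and 0 were called higher. Among the 1067 genes with at least 1000 reads, GER3 had the third lowest ratio, after PIP1;2 and CPN60A, a plastid chaperonin subunit, and 7 of these genes were called lower. This cut was not one of the planned read minimums. GER3, with 852 and 332 reads, lies just above it, so the rank is a description only. The level of GER1 was 24.7 times that of GER3 in wild-type leaves and 63.4 times in mutant leaves on the CPM scale.

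**Figure D2:**
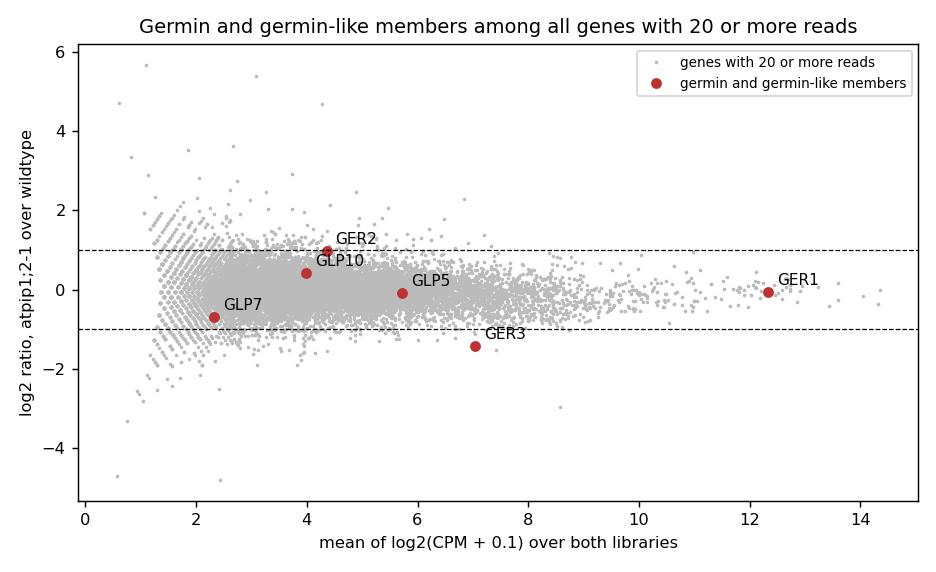
Log2 ratio of atpip1;2-1 over wild type against the mean of log2(CPM + 0.1) over both libraries, for the 15111 genes with at least 20 reads (grey) and the 6 members among them (red). Dashed lines mark 2-fold. GER3 lies below the lower line at -1.42, GER2 just under the upper one at 0.97, and GER1 at the far right at -0.05.

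Of the 10 loci next to GER3 in locus order, 8 reached 20 reads, with log2 ratios from -0.87 to 0.08. Of these 0 were called, beside 1.71% lower and 1.90% higher over all genes, so a count of 0 among so few says little. The intervals of AT5G20600, with 74 and 42 reads (-0.87, -1.46 to -0.31), and AT5G20670, with 70 and 48 (-0.60, -1.16 to -0.05), lay below 0. Those of the other neighbours with enough reads spanned 0, and over all genes 13.2% lay below 0. The nearest on each side with enough reads, UBQ4, a polyubiquitin, and COPT5, a copper transporter, had 265 and 248 reads and 534 and 530 reads. Outside the family, the genes closest to GER3 in the log2 CPM of both libraries were cpHsc70-2, a plastid chaperone (767 and 369 reads, distance 0.21), AT5G59850, for a ribosomal protein of the S8 family (744 and 371, 0.25), and AT5G61170, of the S19e family (851 and 436, 0.39). AT1G26880, of the L34e family, followed with 684 and 394 reads (0.40) and GSA2, an enzyme of chlorophyll precursor synthesis, with 649 and 356 (0.41). Likeness here rests on 2 libraries, so it means a similar level and ratio.

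GER2 stood higher in the mutant library and just short of a call. It had 58 wild-type and 118 mutant reads, 14.6 CPM (11.1 to 18.8) against 28.5 CPM (23.6 to 34.1). The level intervals did not overlap, and the log2 ratio was 0.97 (0.50 to 1.45). Scaled by total counts its log2 ratio was 1.04 and it was called, as it was at 1.04 with totals lacking organelle-encoded and the most abundant genes and at 1.05 with reference genes. The reference-gene scale leans on the elongation factor gene AT5G60390 (-0.84), 1 of its 11 genes. Of the members, GER3 passed the 2-fold threshold of a call and GER2 came nearest to it without passing.

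The split of reads between GER2 and its neighbour AT5G39160 is uncertain, since the copies are near-identical. The coding sequences matched at 668 of 669 bases (99.9%), and after the stop codon they matched at 189 of the 190 bases compared (99.5%). The longest run shared by the transcripts was 515 bases. The last 30 coding bases, the part of the coding sequence nearest to the sequenced 3′ ends, are shown with the stop codon in capitals.
GER2: gaacttcaggccaagtttgggtccataTGA
AT5G39160: gaacttcaggccaagtttgggtccataTGA
AT5G39130: gaacttcaagccaagtttgggtccataTGA
AT5G39160 was counted with 60 and 117 reads, next to 58 and 118 for GER2, and had a log2 ratio of 0.91 (0.45 to 1.38). Both loci therefore held nearly equal counts in each library, and the sources used here do not say how reads matching both were counted. Summed, they gave 118 and 235 reads, 29.6 against 56.7 CPM, a log2 ratio of 0.94 (0.61 to 1.27), in which a read counted at both loci would enter more than once. AT5G39130, the third expressed copy, is 97.8% identical to GER2 in its coding sequence but 63.2% after the stop codon. It had 3 and 15 reads, too few for the 20-read minimum, with a log2 ratio of 2.26 (0.44 to 4.69). The other 5 of the 8 germin-like loci between AT5G39100 and AT5G39190, GLP6 among them, had 0 reads in both libraries.

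**Figure D3:**
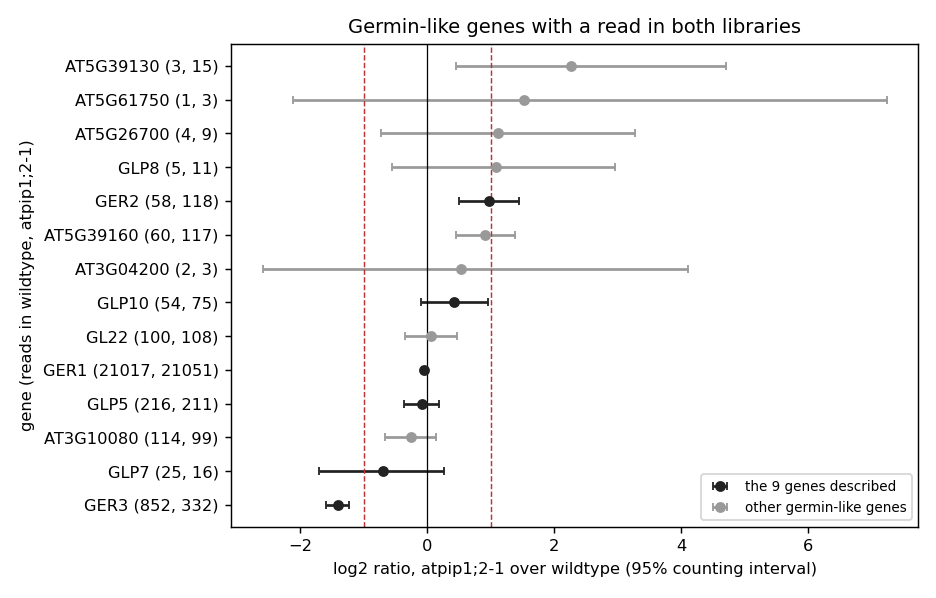
Log2 ratio of atpip1;2-1 over wild type with its 95% counting interval for the germin-like genes that had a read in both libraries, with the reads of each library beside the name. Black points are the members and grey points other germin-like genes; dashed lines mark 2-fold. GER3 is at the bottom with an interval wholly below the lower line, while GER2 and AT5G39160 lie side by side just under the upper line.

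GLP5, the plasmodesmal germin-like protein, had nearly equal reads in both libraries. It was counted with 216 wild-type and 211 mutant reads, 54.3 CPM (47.3 to 62.0) against 50.9 CPM (44.3 to 58.3). The level intervals overlapped, and the log2 ratio of -0.09 (-0.37 to 0.19) spanned 0. Its plasmodesmal relative PDGLP2 (AT1G02335, GL22 in RefSeq) had 100 and 108 reads and a log2 ratio of 0.05 (-0.35 to 0.46). A list of other plasmodesmal proteins had 6 of 9 genes with enough reads and 0 called, beside 1.71% lower and 1.90% higher over all genes. Its median log2 ratio was -0.32, beside -0.00 over all genes with enough reads. PDCB1, a callose-binding protein of plasmodesmata, was at 55.8 and 45.4 CPM (-0.30), and PDLP3 had 94 and 55 reads (-0.83). The list ran from that value up to 0.83 (0.11 to 1.58) for PDLP5 (AT1G70690, HWI1 in RefSeq), with 26 and 48 reads.

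The remaining members held fewer reads than GER2 in each library. GLP10 had 54 wild-type and 75 mutant reads, 13.6 CPM (10.2 to 17.7) against 18.1 CPM (14.2 to 22.7). Its log2 ratio was 0.42 (-0.11 to 0.95), with overlapping level intervals. It shares 27 annotated bases with AT3G62010 on the other strand, a gene counted with 70 and 94 reads. GLP7 had 25 and 16 reads, 6.28 CPM (4.06 to 9.27) against 3.86 CPM (2.21 to 6.27), and its log2 ratio of -0.70 (-1.70 to 0.26) also spanned 0. GLP9 had 0 wild-type reads and 1 mutant read, and GLP4 and GLP6 had 0 in both. The floor for 0 reads was set at 3 reads, which is 0.754 CPM for the wild-type and 0.724 CPM for the mutant library. The upper ends of the exact Poisson intervals lie higher, at 0.927 and 0.891 CPM. GLP4 and GLP6 were thus not detected at this depth. The single mutant read of GLP9 is 0.24 CPM, with an exact Poisson interval from 0.0061 to 1.35, and no ratio is given for it.

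In order of level the members ran GER1, GER3, GLP5, GER2, GLP10 and GLP7 in both libraries. Reads come from transcript 3′ ends, so CPM was not divided by length in this order. Per kilobase of RefSeq transcript the order was the same in the mutant, and in the wild type GLP10 came before GER2, at 15.8 against 13.4 CPM per kilobase. The intervals of GER2 and GLP10 overlapped in the wild type, so these neighbours did not differ beyond counting error there. Summed over the 9 genes the level was 5582 CPM against 5265 CPM in the mutant on effective library sizes. As shares of all reads counted, without that scaling, the 9 genes held 0.545% and 0.539%, so the size of the difference depended on scaling.

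Over the 6 members with enough reads the median log2 ratio was -0.07, and 2 were positive and 4 negative. The intervals of 2 members lay below 0 and that of 1 above, while over all genes 13.2% lay below and 10.3% above. The GER1 interval is narrow because of its depth, and its ratio was within 0.1 of 0. Among the other 23 germin-like loci of the family, 3 reached 20 reads, with a median of 0.05, and 14 had 0 reads in both libraries. Of the 3, 0 were called, beside 1.71% lower and 1.90% higher over all genes. The most abundant of these, AT3G10080, had 114 and 99 reads (-0.26).

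Genes that make or remove the reactive oxygen species that some germin-type enzymes release or act on were compared as lists. Over all genes 1.71% were called lower and 1.90% higher, so a count of 0 in a list this small says little. The list of superoxide dismutases, which turn superoxide into hydrogen peroxide, also holds their copper chaperone CCS, with 49 and 60 reads (0.24). It had 8 of 9 loci with enough reads, CCS included. Of these 2 were called lower, 0 higher, and the median, with CCS counted, was 0.07. The lower ones were the plastid iron enzymes FSD2, with 133 and 66 reads (-1.07, -1.52 to -0.63), and FSD3, with 175 and 91 (interval -1.38 to -0.63). Both calls were lost with total counts, with totals lacking organelle-encoded and abundant genes, and with reference genes as the scale, and 1 of them with DESeq2 size factors. FSD1, the abundant member, was at 1121 and 1250 CPM (0.16), and the mitochondrial MSD1 at 154 and 142 CPM (-0.12). Of the catalases, which break down hydrogen peroxide in peroxisomes, 0 of 3 were called, and the median was 0.53. CAT3 had 5807 and 11588 reads, 1459 against 2798 CPM (0.94, 0.89 to 0.99), and passed 2-fold with total counts, with totals lacking organelle-encoded and abundant genes, or with reference genes as the scale. CAT2 was at 764 and 721 CPM (-0.08).

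The list of cell wall peroxidases and oxidases had 11 of 21 loci with enough reads. Of these 1 was called lower and 1 higher, beside 1.71% and 1.90% over all genes, and the median was 0.16. The ratio was positive for 8 and negative for 3. The intervals of 4 lay above 0 and those of 2 below, while over all genes 10.3% lay above and 13.2% below. The copper amine oxidase gene AT1G31690, of a class that releases hydrogen peroxide while oxidising amines, had 109 and 33 reads (-1.78, -2.39 to -1.21). Its relative CuAO1 had 21 and 49 reads (1.17, 0.40 to 1.98). The peroxidase genes PRXR1, at 1218 and 1358 CPM (0.16), and PRXCB, at 101 and 109 CPM (0.11), were the most abundant of the list.

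Because GER3 transcript cycles through the day, clock genes are given beside it. The sources used here give no hour of harvest. Of 6 genes of the morning list 0 were called, with a median of 0.31. Its most abundant genes were LHY, a morning transcription factor, at 56.3 and 70.8 CPM (0.33), and RVE8 at 47.2 and 44.9 CPM (-0.07). RVE8 had the lowest ratio of that list, and PRR7, with 69 and 101 reads, the highest (0.49, 0.04 to 0.96). Of 9 genes of the evening list 0 were called, with a median of 0.23 and values from -0.49 to 0.94. The highest value was that of PRR5, with 29 and 58 reads (interval 0.28 to 1.64). Over all genes 1.71% were called lower and 1.90% higher, so counts of 0 in lists this small say little. The ratio was positive for 5 of the 6 morning and 7 of the 9 evening genes. The intervals of 2 morning and 3 evening genes lay above 0, and those of 0 lay below. Over all genes 10.3% lay above and 13.2% below. The RNA-binding proteins GRP7 and GRP8 (CCR1 in RefSeq), clock outputs of the evening, were at 1772 and 2077 CPM (0.23) and at 418 and 391 CPM (-0.10). With total counts, totals lacking organelle-encoded and abundant genes, or reference genes as the scale, 1 evening gene, PRR5, was called higher. A part of harvest time in the GER3 value was not tested. The 11 reference genes had a median of 0.05, with 0 called, UBQ10 at 1333 and 1549 CPM (0.22) and the elongation factor gene AT5G60390 at 2006 and 1122 CPM (-0.84). The reference-gene scale uses the mean log2 ratio of these 11. AT5G60390 and GAPC2, at -0.49, pull that mean below the median. Calls gained on that scale (GER2, CAT3 and PRR5), those lost (FSD2 and FSD3) and its split over all genes therefore lean on these 2 genes.

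**Figure D4:**
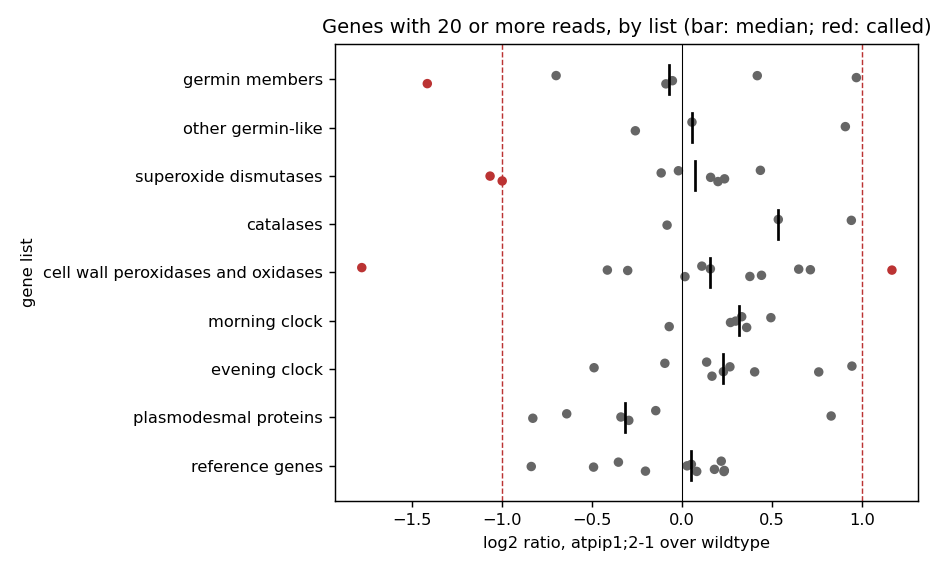
Log2 ratio of atpip1;2-1 over wild type for the genes of each list with at least 20 reads. Each point is a gene, red where called, the bar is the list's median, and dashed lines mark 2-fold. Of the germin members GER3 is called at -1.42, and the points of both clock lists lie between -0.49 and 0.94.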

How the data were processed

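Per the file headers each deposited file gives 1 genotype's read count at every locus. The counts are whole numbers whose totals differ, so they were taken as not normalized. Per the labels' protocols, a company built 3′-end cDNA libraries from RNA of 10 plants per genotype and sequenced them on a Genome Analyzer II. The submitters' processing notes name TAIR9 as the genome build. The sources used here do not name an aligner or counter, or say how strand and reads with several matches were handled. Each file had 27337 rows, and 1 locus listed repeatedly with equal values was kept once.

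Effective library sizes came from edgeR 4.0.16 (R 4.3.3), with TMM factors of 0.976 and 1.02. A quasi-likelihood fit in edgeR needs replicates, which 1 library per genotype does not give, so no p-value is printed. Log2 ratios have exact conditional binomial intervals and levels exact Poisson intervals at the 95% level (scipy 1.17.1, Python 3.11.15). Intervals and calls were checked on simulated counts. These were drawn with Poisson error only, so the check covers the computation and not the spread among plants or libraries.

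The members and the 15 gene lists were chosen with earlier results of these data known. All members are named. Other lists name up to 4 called genes and 2 abundant ones besides, and 5 genes outside the family are named for likeness to the member with the largest ratio. CPN60A, PDLP5, UBQ4, COPT5, GAPC2, AT5G39160, AT5G39130, EXPA7, AP3 and the genes overlapping GER1 and GLP10 are named outside this rule, chosen after their values were seen. The same holds for CCS, PRR5, PRR7, AT5G20600 and AT5G20670. Symbols, transcripts and coding sequences came from RefSeq on TAIR10.1 by locus identifier, where 26604 loci matched, all 32 germin-like ones included. No genome coordinates are printed since the builds differ. Sequences were aligned with Biopython 1.88. Alternatives changed the scaling (total counts, DESeq2 1.42.0 size factors, the mean log2 ratio of 11 reference genes, totals lacking organelle-encoded genes and the 20 of highest count), reduced the deeper library to the size of the other by seeded thinning, or changed the read minimum or the fold.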

Additional observations from a re-analysis of the deposited data

How the results depend on the processing

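GER3 was called lower under all 8 alternatives of scaling, thinning and read minimum, with log2 ratios from -1.42 to -1.34. GER2 ranged from 0.95 to 1.05, GLP10 from 0.40 to 0.50, GLP5 from -0.09 to -0.01, GLP7 from -0.71 to -0.62 and GER1 from -0.05 to 0.02. The number of members called higher went from 0 to 1, GER2, with total counts, reference genes or totals lacking organelle-encoded and abundant genes as the scale, and with a fold of 1.5. The median of the members was 0.01 with reference genes. Over all genes, a minimum of 100 reads left 97 higher and 80 lower, since fewer genes were counted, and a fold of 1.5 gave 807 and 896. AT5G39130 was called higher without the 20-read minimum or with a minimum of 5. No paired analysis was possible because each genotype has 1 library. For the same reason no library could be left out. The ratios of genes with few reads, such as GLP7, are limited by depth.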
